A study of Mus musculus with 2 samples.

Results

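The selected immune cells were 107 of the 6883 filtered cells (1.55%, exact 95% binomial interval 1.28 to 1.88%) that 2 libraries of embryonic mouse pancreas gave together. Cells were selected on measured counts: a cell qualified when it held at least 5 UMIs (unique molecular identifiers, each standing for 1 captured transcript) over Ptprc, Csf1r, C1qa, C1qb, Tyrobp and Fcer1g, with at least 2 of these genes detected, and fewer than 2 UMIs of the epithelial genes Epcam and Cdh1. The knockout library gave 22 of them and the control library 85. Their transcripts showed a mixture: 62 macrophage-like cells, 24 granulocyte-like cells, 11 mast-like cells and 10 cells left without a name.

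The study compared the pancreas of 1 Dpy30 knockout embryo with that of 1 control embryo, both at embryonic day 13.5 and on C57BL/6. Dpy30 is a core subunit of the COMPASS complexes, which methylate lysine 4 of histone H3. Each pancreas was dissociated with trypsin, sorted for cells that excluded the dead-cell dye 7-AAD (about 30000 per sample) and loaded for a target of 5000 cells on the 10x Genomics 3' version 2 chemistry, which counts the 3' ends of transcripts. The knockout is written Dpy30∆P in the series. No label used here names the Cre driver, the part of Dpy30 that is deleted or the control's genotype. Whether the immune cells carried the deletion is therefore not known here. Below, knockout cells means cells of the knockout library. With 1 library per group, genotype, sex, embryo and library cannot be told apart, no difference between them has a replicate check, and every interval printed here covers counting error only.

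Macrophages settle in mouse organs before birth, first from yolk sac progenitors and later from fetal liver monocytes, and depend on the receptor Csf1r. Resident macrophages clear dying cells through scavenger and complement receptors, recycle lipid and iron, and secrete chemokines that call in other leukocytes. Granulocytes and mast cells come from the same myeloid progenitors but fill their granules with antimicrobial proteins or proteases.

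The files held 3044 knockout and 3900 control barcodes, with 28033433 and 32702089 UMIs in all and medians of 8049 and 6825.5 UMIs per barcode. Barcodes with under 500 genes or 1000 UMIs, or with mitochondrial UMIs above 10%, were left out: 32 from the knockout library, of which 1 met the marker rule, and 29 from the control library, of which 0 did. The selected cells held a median of 10914 UMIs in the knockout library and 8885 in the control library, against 8015.5 and 6792 in the other cells. The libraries shared 22 barcodes, and 0 of these were selected. Xist, transcribed from the inactive X chromosome, was detected in 22 of 22 selected knockout cells and 0 of 85 selected control cells, and the Y-linked Ddx3y in 0 of 22 and 30 of 85, so the embryos also differed in sex. Dpy30 averaged 96.6 CPM (a gene's share of the UMIs summed over the cells of a group, scaled to counts per 1000000) in the selected knockout cells and 105 CPM in the selected control cells, and 158 against 148 CPM in the other cells; a 3' count may lie outside the deleted part, so these levels check neither the deletion nor the label.

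The 6 rule genes chose these cells, so their levels only describe the choice. Selected cells held a median of 52 rule-gene UMIs (range 6 to 163) in the knockout library and 84 (10 to 208) in the control library, while 6356 of the filtered cells held 0. Just outside the rule, 5 cells had 4 or 5 rule-gene UMIs and failed on the number of UMIs or of genes, and just inside it the lowest selected cells held 6, 6 and 10. Few cells thus lay near the threshold. An unsupervised clustering placed all 107 selected cells in 1 cluster of 110 cells. Tyrobp and Fcer1g, adaptor chains that signal for many myeloid receptors, were present in every subset: pooled Tyrobp was 2649 CPM in macrophage-like, 1300 in granulocyte-like, 1201 in mast-like and 1152 in the unnamed cells. Csf1r was 700 CPM in macrophage-like cells against 12.6, 0 and 40.0 CPM in the other subsets.

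The subsets were cut after the values were seen, by summed UMIs per cell. In order of precedence the cuts were at least 3 of C1qa, C1qb and C1qc, at least 50 of the granulocyte list, and at least 10 of the mast cell list. The granulocyte list ran from 421 to 5505 UMIs in granulocyte-like cells and from 0 to 3 in macrophage-like cells. The mast cell list ran from 12 to 377 UMIs in mast-like cells and from 0 to 4 elsewhere. C1q UMIs were 15 at the lowest, 48.5 at the median and 103 at the highest in knockout macrophage-like cells, against 4, 81.5 and 162 in control ones. Over all selected cells, 1 held 3 to 9 C1q UMIs, 3 held 1 or 2, and 42 held 0.

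**Figure D1:**
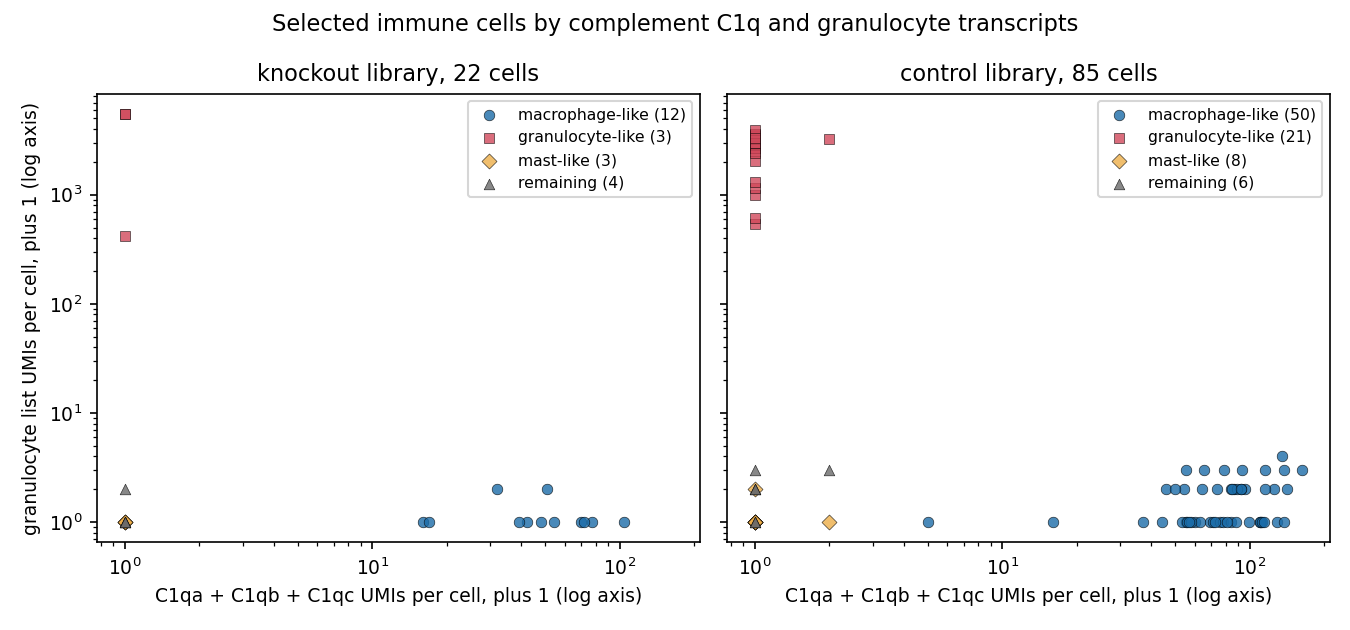
Each point is a selected cell, placed by its summed UMIs of C1qa, C1qb and C1qc (x axis, plus 1, log scale) and of the granulocyte list (y axis, plus 1, log scale), knockout library at left and control library at right, coloured by subset. Granulocyte-like cells, with 421 or more granulocyte-list UMIs, stand apart from macrophage-like cells, which hold at most 3.

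Between the selected and the other cells, 287 of 3219 measured genes were at least 4-fold higher in both libraries (8.92%) and 228 at least 4-fold lower (7.08%), a contrast that the rule itself used. The genes with the highest ratios came from several cell types. Genes of the granulocyte list led: S100a8, a subunit of the calcium-binding protein calprotectin, had 27075 CPM in selected and 14.7 CPM in other cells. The antimicrobial genes Ngp, Camp and Lcn2 had 5415 against 2.21, 5665 against 2.94 and 1767 against 0.693 CPM. From macrophages came C1qc, a chain of the complement initiator C1q, at 1416 against 0.608 CPM, Pf4, a chemokine, at 1685 against 2.42 CPM, and the lipid carrier Apoe at 8306 against 74.4 CPM. The mast cell protease Cpa3 had 643 against 0.0845 CPM. Genes used across leukocytes were also among them, such as the actin regulator Coro1a at 771 against 2.11 CPM and the small GTPase Rac2 at 790 against 0.625 CPM.

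Counts by gene list describe the choice of cells and support nothing: an immune gene near 0 in other cells passed the minimum of 50 CPM only through the selected cells, and C1qa, C1qb, Tyrobp and Fcer1g are themselves rule genes. Past 4-fold higher in both libraries were 9 of 12 listed complement genes, 9 of 15 ITAM adaptor and Fc receptor genes, 6 of 20 scavenger receptor genes and 6 of 6 phagocyte oxidase genes, and the other members of the first 3 lists were too low to be measured. The count was 10 of 22 for chemokines and cytokines (11 measured), 8 of 20 for lysosomal genes (18 measured), 5 of 12 for iron and haem handling (10 measured), and 7 of 16 for MHC class I and interferon-response genes (12 measured). No member of the S phase and G2/M lists passed 4-fold in either direction, out of 18 measured in each. Past 4-fold lower were 9 of 10 measured mesenchymal, 8 of 9 epithelial, 4 of 4 acinar enzyme and 4 of 5 erythroid genes. Neurog3, the endocrine progenitor factor, was at 0 in the selected cells and 110 CPM in the other cells, and the secreted growth factor Ptn at 105 against 2190 CPM.

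The 62 macrophage-like cells carried a resident macrophage repertoire. Pooled over both libraries, complement was represented by C1qa, C1qb and C1qc at 2282, 3347 and 2647 CPM, whose genes lie close together on the minus strand of chromosome 4 (GRCm38; C1qb at chr4:136880129-136886187, C1qc at chr4:136889804-136893065, C1qa at chr4:136895917-136898803), and by the anaphylatoxin receptors C3ar1 and C5ar1 at 220 and 218 CPM. Receptors for the uptake of debris included the mannose receptor Mrc1 (670 CPM), Stab1 (468 CPM), Cd36 (169 CPM) and Msr1 (85.6 CPM). Trem2, a lipid-sensing receptor that signals through Tyrobp, had 356 CPM, and the Fc receptor Fcgr3 599 CPM. Lysosomal proteases were high, with Ctsb at 2120 CPM and Lgmn at 1021 CPM. Apoe reached 15308 CPM and was found in 62 of 62 cells, at 10 to 285 UMIs each. Ferroportin, the iron exporter encoded by Slc40a1, had 426 CPM and the ferritin light chain Ftl1 16361 CPM.

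Among transcription factors, Maf had 868 CPM, Spi1, which encodes the myeloid master regulator PU.1, 480 CPM, and Irf8, needed for macrophage and monocyte development, 255 CPM. Secreted factors included Gas6, which bridges dying cells to their receptors, at 393 CPM, and the insulin-like growth factor gene Igf1 at 213 CPM; Igf1 had 155 CPM in the other cells of the pancreas. Genes best known from microglia were also present, with Fcrls at 660 CPM, the fractalkine receptor Cx3cr1 at 880 CPM and P2ry12 at 55.9 CPM. Several genes of adult macrophages were at 0 in these cells: the haemoglobin scavenger receptor Cd163, the scavenger receptor Marco, the complement receptor Vsig4, and the MHC class II genes H2-Aa, H2-Ab1 and H2-Eb1. With 3 UMIs as the limit that a count of 0 allows, each of these was below 30.3 CPM in knockout and 6.33 CPM in control macrophage-like cells. Other genes of MHC class II were detected. With all cells thinned to equal depth, the MHC class II list held UMIs in 29 of 62 macrophage-like cells, at most 5 each. Cd74, the invariant chain, was found in 5 of these 62 thinned cells.

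Macrophage-like cells varied among themselves in the receptors detected at equal depth. After thinning each cell to 3000 UMIs, Mrc1 was detected in 52 of 62 cells and Cx3cr1 in 50, with 42 cells holding both. The hyaluronan receptor Lyve1 was found in 23 cells, of which 21 also held Mrc1, and the folate receptor gene Folr2 in 23, of which 10 also held Lyve1. The phosphatidylserine receptor Timd4 was found in 9 cells and the monocyte chemokine receptor Ccr2 in 2. F13a1, a coagulation factor gene of macrophages and monocytes, was found in 39. Thinning loses UMIs, so a gene missed in a thinned cell is not read as absent. Unthinned, Cx3cr1 was found in 12 of 12 knockout and 48 of 50 control macrophage-like cells. Lyve1 differed between unthinned control cells of similar depth, with 0 UMIs in a cell of 9473 UMIs and 29 in a cell of 9922. In the unthinned other cells Lyve1 was found in 0.870% of knockout and 1.64% of control cells, and Mrc1 in 0.435% and 0.370%.

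The 24 granulocyte-like cells were led by calprotectin and granule genes: pooled S100a8 was 121960 CPM, and each cell held 42 to 2374 S100a8 UMIs. They were not uniform: 3 control cells with 384, 426 and 789 S100a8 UMIs held 0 UMIs of Ngp, Camp and Ltf but 37, 112 and 50 of the monocyte list, Ly6c2 and Plac8 included, so the subset is not made up of granulocyte stages alone. The other 18 control cells held Ngp and Camp. Ltf, which encodes lactoferrin of the secondary granules, was detected in 19 of 24 cells (median 39.5 UMIs), and Ngp in 20. Among genes of the earlier primary granules, Elane and Mpo were rarer. The neutrophil elastase gene Elane had 81 and 28 UMIs in 2 cells and 1 UMI each in 2 more. Of the other cells, 0.0669% in the knockout and 0.0528% in the control library held an Elane UMI. The myeloperoxidase gene Mpo was found in 1 cell. Prtn3, on the same list, was more widely found, in 3 selected knockout and 15 selected control cells. A single control granulocyte-like cell held 27 of its UMIs. Free RNA, estimated from epithelial, acinar, erythroid and mesothelial genes, was 6.28% of UMIs in selected knockout and 6.83% in selected control cells, so a single UMI is not read as expression. That single Mpo-positive cell, from the knockout library, held 81 Elane, 146 Mpo, 125 Prtn3 and 19 Ctsg UMIs but 42 of S100a8 and 0 of Ltf. Ly6g, a surface marker of mature mouse neutrophils, was detected in 1 control cell. The phagocyte oxidase genes Cybb and Ncf4 had 522 and 492 CPM, against 148 and 57.6 CPM in macrophage-like cells.

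The promoters of C1qc and S100a8 are printed because these genes mark the 2 largest subsets and both windows hold the letters of a PU.1 site, GAGGAAGT, on either strand. Each is 250 bases upstream of the RefSeq start, 5′ to 3′ in the direction of transcription (GRCm38.p6; C1qc at chr4:136892915-136893164, minus strand; S100a8 at chr3:90668821-90669070, plus strand), with the match in capitals.
C1qc: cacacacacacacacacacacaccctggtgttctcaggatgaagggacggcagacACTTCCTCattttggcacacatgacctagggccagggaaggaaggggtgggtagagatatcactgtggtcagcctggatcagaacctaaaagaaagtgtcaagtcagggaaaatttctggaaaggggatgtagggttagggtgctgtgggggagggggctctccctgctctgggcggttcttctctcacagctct
S100a8: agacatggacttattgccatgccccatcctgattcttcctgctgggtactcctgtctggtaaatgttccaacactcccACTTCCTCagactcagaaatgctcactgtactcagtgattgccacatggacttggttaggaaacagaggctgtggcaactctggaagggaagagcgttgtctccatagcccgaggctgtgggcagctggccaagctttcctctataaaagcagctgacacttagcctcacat
The same letters were found in 5 of 12 granulocyte-list promoters (S100a8, Mpo, Elane, Prtn3 and Ly6g), in 2 of 11 macrophage-list promoters (C1qc and Pf4) and in 755 of 27025 genes with a promoter in the table (2.79%). A match describes the letters in the window and not a bound site. The C1qc locus given earlier reaches into the C1qc window, so its start there differs from the RefSeq start used here.

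The 11 mast-like cells were set apart by Cpa3, carboxypeptidase A3 of mast cell granules, with 1 to 108 UMIs per cell, and by Hdc, the enzyme that makes histamine, with 2 to 39. The chymase gene Cma1 was found in 10 of 11 cells (median 15.0, highest 194 UMIs) and the tryptase gene Tpsb2 in 4 (highest 74). Gata2, a transcription factor of mast cells and progenitors, was found in 11 of 11 and the stem cell factor receptor Kit in 9. The high-affinity IgE receptor gene Fcer1a and the proteases Mcpt4, Tpsab1 and Mcpt8 were at 0. Ifitm1 had 4570 CPM in mast-like cells and 21.0 CPM in macrophage-like cells. The progenitor list was met by 10 of these 11 cells, through Kit among others, and the lymphoid list by 5.

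The 10 remaining cells met no subset and were not given a name. The lymphoid list was met by 6 of them, 3 from each library. Il7r, the interleukin-7 receptor, was found in 5, the T cell kinase gene Lck in 5, Tcf7 in 6, Gata3 in 5 and Rora in 6; these factors and receptors are shared by T cells and innate lymphoid cells. Ltb, a lymphotoxin chain, was found in 8 and Cd7 in 5. Lyz2 and Ms4a6c, both of monocytes, were found in 3 control cells each and in 0 of 4 knockout cells, with up to 113 UMIs of Lyz2 in a cell. Ccr2 had 256 CPM in these cells and Cd74, the invariant chain of MHC class II, 248 CPM. The megakaryocyte list was met by 0 of the 107 selected cells and the dendritic list by 2.

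**Figure D2:**
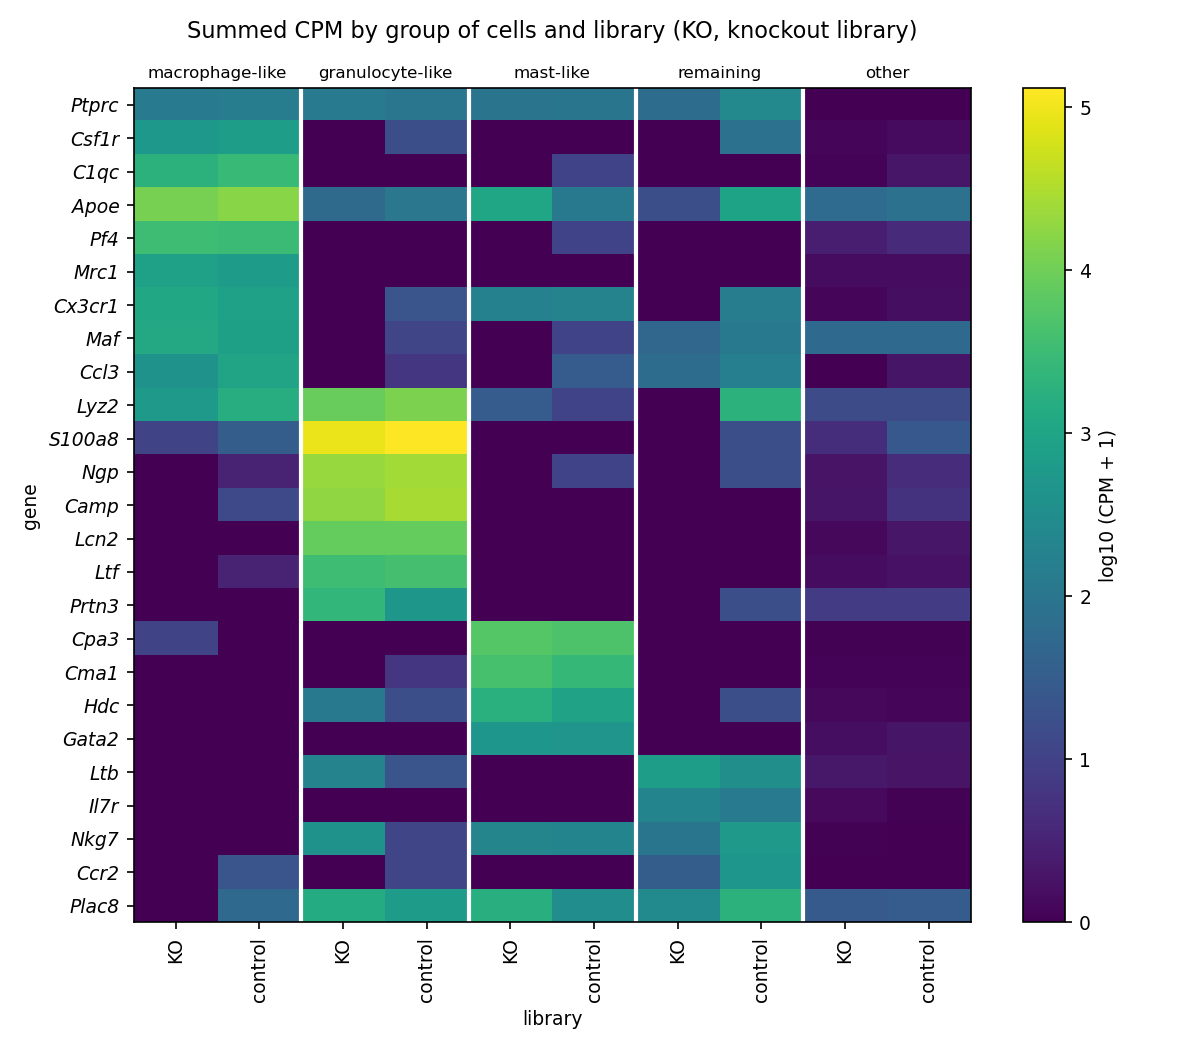
Heat map of log10(CPM + 1) for 25 genes (rows) in the 4 subsets and the other cells, each with the knockout library left of the control library. C1q, Mrc1 and Csf1r are filled in the macrophage-like columns, S100a8, Ngp and Camp in the granulocyte-like columns, and Cpa3 and Hdc in the mast-like columns.

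Genes of dividing cells were read as levels, not as proof of division. At least 3 of Mki67, Top2a, Cdk1, Ccnb1 and Ube2c were detected in 19 of 24 granulocyte-like, 6 of 11 mast-like and 14 of 62 macrophage-like cells; at 3000 UMIs per cell these counts were 10, 4 and 8. Among all selected cells the share was 10 of 22 in the knockout library (45.5%) and 35 of 85 in the control library (41.2%), against 22.0% and 23.3% of the other cells. Thinned, it was 2 of 22 (9.09%, 1.12 to 29.2%) in the knockout library and 23 of 85 (27.1%, 18.0 to 37.8%) in the control library. Thinned shares of the other cells were 13.2% and 14.3%. In cells with at least 2 UMIs of Epcam and Cdh1, pooled over libraries, the share was 39.1% unthinned and 18.8% thinned. The order of the libraries, and in the knockout library that of selected and other cells, thus depended on depth. No order is read from these shares.

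Selected cells made up a smaller share of the knockout library than of the control library. They were 22 of 3012 filtered knockout cells (0.730%, exact 95% binomial interval 0.458 to 1.10%) and 85 of 3871 filtered control cells (2.20%, 1.76 to 2.71%), a ratio of 0.333 (0.209 to 0.530). Macrophage-like cells were 0.398% of knockout and 1.29% of control cells (12 and 50 cells, ratio 0.308, 0.165 to 0.578), and granulocyte-like cells 0.0996% and 0.542% (3 and 21 cells, ratio 0.184, 0.0548 to 0.615). For mast-like cells, 3 and 8, and unnamed cells, 4 and 6, the intervals of the ratio spanned 1 (0.482, 0.128 to 1.82, and 0.857, 0.242 to 3.03). Within the selected cells macrophage-like cells were 54.5% in the knockout library and 58.8% in the control library. Dissociation, the live-cell sort and the number of cells loaded can each set such shares; their part in the result was not tested. With 1 embryo per group, the difference has no replicate.

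**Figure D3:**
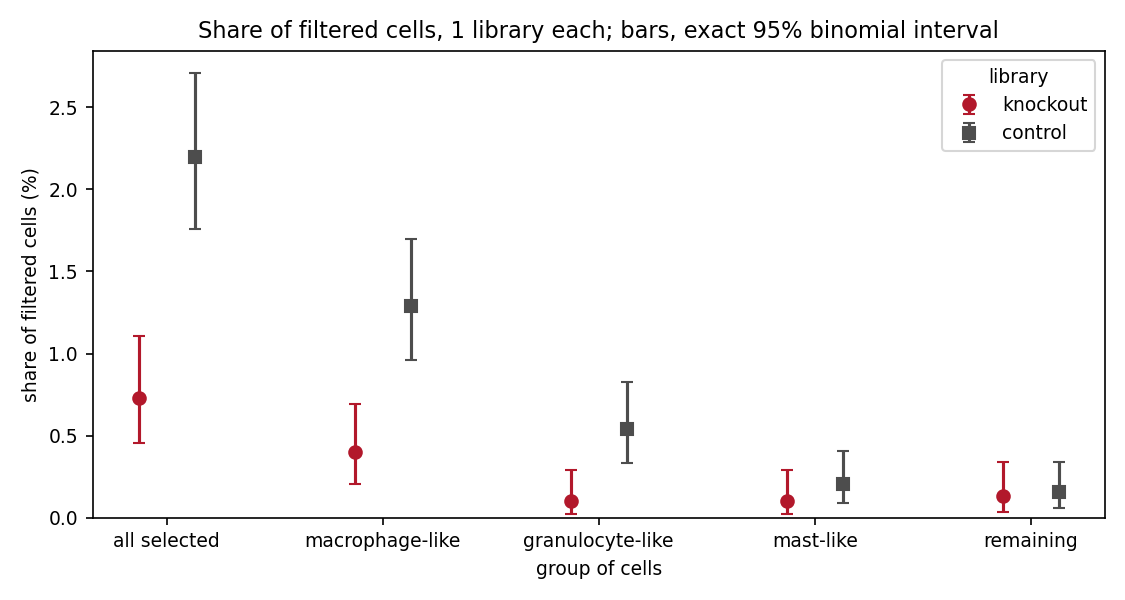
Share of all filtered cells (y axis, %) that were selected or fell in each subset, with exact 95% binomial intervals (bars), knockout library (circles) left of control library (squares). The intervals of the libraries are apart for the selected cells (0.730% against 2.20%), macrophage-like cells (0.398% against 1.29%) and granulocyte-like cells (0.0996% against 0.542%). They overlap for mast-like and remaining cells.

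Across all selected cells, 86 of 2791 measured genes were at least 2-fold higher in the knockout library (3.08%) and 158 at least 2-fold lower (5.66%), on the log2(CPM + 5) scale. This split depended on the scaling: it was 217 higher and 210 lower with haemoglobin, mitochondrial and ribosomal protein genes removed, 136 and 163 with a mean of per-cell CPM, and 68 and 202 with TMM scaling. The 8 genes named for the highest ratios differed in where they were found. Cd7 had 133 CPM in selected knockout and 13.4 CPM in selected control cells, Ltb 229 against 30.4 CPM, both at 0 in macrophage-like cells, and Ifitm1, highest in mast-like cells, 1691 against 373 CPM. Prtn3 had 511 against 117 CPM, with most of its knockout UMIs in the Mpo-positive granulocyte-like cell. Nrgn had 149 against 17.0 CPM, S100a4 181 against 26.7 CPM and Slc6a13 117 against 25.5 CPM, each with at most 1 UMI over the macrophage-like cells. Phgdh, an enzyme of serine synthesis, had 165 against 43.8 CPM, and within macrophage-like cells 80.9 against 35.9 CPM (fold 2.26, 0.843 to 5.52). The lowest ratios fell on Isg15, Ccl4, Trim30a, Ifitm3, Hmox1, Ccl9, Rtp4 and Mest, so the comparison was repeated within macrophage-like cells.

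Within macrophage-like cells, 12 knockout cells with 98862 UMIs were set against 50 control cells with 473891. Of 2960 measured genes, 104 were at least 2-fold higher (3.51%) and 286 at least 2-fold lower (9.66%) in the knockout library, and the median log2 ratio of all genes was 0.01. A gene was measured when it reached 50 CPM in either library and 20 UMIs over both, so a gene at 0 in the control library needed 202 CPM in the knockout library while the reverse needed 50 CPM, and the excess of lower genes is in part built in. With 202 CPM in either library as the minimum, chosen after seeing the data, 8 of 753 genes were higher (1.06%) and 44 lower (5.84%). The subset was cut on C1q, so C1q levels are given as a description. C1qa had 1740 CPM in knockout and 2395 CPM in control macrophage-like cells, C1qb 2458 and 3532 CPM, and C1qc 1972 and 2788 CPM. Mesenchymal transcripts moved with this contrast: the summed mesenchymal list was 101 CPM with 7 of 12 genes at 0 in knockout, and 561 CPM with 1 of 12 at 0 in control macrophage-like cells. For the epithelial list the sums were 10.1 and 90.7 CPM, and for the erythroid list 465 and 184 CPM; their part in the results below was not tested. Of the mesenchymal list 5 of 5 measured genes were past 2-fold lower, and 0 members were measured at the minimum of 202 CPM. The monocyte list moved too, with 3 of 4 measured genes past 2-fold lower (1 of 2 at 202 CPM) and a sum of 769 CPM (7 of 10 genes at 0) in knockout and 1346 CPM (2 of 10 at 0) in control macrophage-like cells. Among them Ms4a6c had 314 against 646 CPM and Plac8 0 against 54.9 CPM, with Plac8 in 5 control cells and Ccr2 in 3. Without the 7 control cells that held either, also chosen after seeing the data, 99 genes were higher and 292 lower; 8 of 14 interferon-list genes were past 2-fold lower and 1 higher, and 9 of 14 chemokine-list genes lower and 0 higher. The highest simulated doublet scores of each library included 0 knockout and 3 control macrophage-like cells.

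Genes of MHC class I and the interferon response were lower in knockout macrophage-like cells. Of 14 measured members, 8 were past 2-fold lower (57.1%, against 9.66% of all genes) and 0 past 2-fold higher. The lists were chosen with earlier results of these data known. Some members, such as Isg15, were measured only through the control library, where they were high. Shares of any list in the macrophage-like comparison are therefore a description and support nothing. The median log2 ratio was −1.53 against 0.01 for all genes. At the minimum of 202 CPM, 5 of 9 were lower, against 5.84% of all genes. Isg15, a ubiquitin-like protein induced by interferon (chr4:156199424-156200818), had 0 UMIs in 12 of 12 knockout cells and 0 to 10 UMIs, median 1.0, in control cells, 39 of 50 of which held it. Its control level was 253 CPM, so against the 3-UMI limit of the knockout group it was at least 8.34-fold lower there. In the other cells of the pancreas Isg15 was also lower in the knockout library, at 0.764 CPM (0.435% of cells) against 6.28 CPM (3.20% of cells).

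Ifitm3, a membrane protein that restricts virus entry, had 60.7 CPM in knockout and 732 CPM in control macrophage-like cells (fold 0.0829, 0.0302 to 0.182), with UMIs in 3 of 12 and 48 of 50 cells. Knockout cells held 0 to 4 UMIs (median 0) and control cells 0 to 37 (median 6.0), so the ranges overlapped. Other cells held 149 CPM of Ifitm3 in the knockout library and 238 CPM in the control library. Trim30a, an interferon-induced TRIM protein gene found through the rule for the lowest ratios and not through the list, had 20.2 against 224 CPM (0.0904, 0.0108 to 0.335). Rtp4, named the same way, had 60.7 against 262 CPM (0.232, 0.0835 to 0.519), with its 6 knockout UMIs in a single cell and UMIs in 48 of 50 control cells. Bst2, which tethers budding viruses, had 233 against 688 CPM, and Irf7, a transcription factor of the interferon response, 20.2 against 129 CPM.

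The antigen-presenting chains H2-K1 and H2-D1 had 60.7 against 211 CPM (0.288, 0.103 to 0.648) and 152 against 445 CPM (0.341, 0.187 to 0.575) in knockout and control macrophage-like cells. When the log2 ratio of the other cells was subtracted, Bst2 stood at −0.70 (−1.54 before), H2-K1 at −0.93 (−1.72) and H2-D1 at −0.72 (−1.52), each then short of 2-fold. The light chain shared by class I molecules, B2m, had 1335 against 2089 CPM, short of 2-fold. Ifitm2 had 506 against 591 CPM, with an interval of the ratio that spanned 1. Ifi27l2a ran the other way, at 344 against 190 CPM, but 33 of its 34 knockout UMIs lay in the deepest knockout cell; without that cell it had 11.6 CPM. Summed over the list at 3000 UMIs per cell, knockout macrophage-like cells held 6 UMIs at the lowest, 10.5 at the median and 17 at the highest, and control cells 7, 17 and 52. The groups overlapped, with the higher control cells above every knockout cell.

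Promoters of 3 members of the interferon list are printed as examples that hold the letters of an interferon-stimulated response element. These are GAAA followed by 2 bases of any kind and GAAA again, searched on both strands. No level of Ifit1 is given here, so it is not counted among the lower genes named above. Each window is the 250 bases upstream of the RefSeq start, 5′ to 3′ in the direction of transcription (GRCm38.p6; Isg15 at chr4:156200819-156201068, minus strand; Bst2 at chr8:71537473-71537722, minus strand; Ifit1 at chr19:34640639-34640888, plus strand). Capitals mark the matches, of which Isg15 has 3 that overlap, Bst2 2 that overlap and Ifit1 2 apart, on the other strand.
Isg15: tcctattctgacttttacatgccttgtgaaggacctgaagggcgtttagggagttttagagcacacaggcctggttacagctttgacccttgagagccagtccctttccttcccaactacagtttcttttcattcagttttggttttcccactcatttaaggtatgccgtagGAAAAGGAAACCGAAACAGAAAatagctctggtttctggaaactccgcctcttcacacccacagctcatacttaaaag
Bst2: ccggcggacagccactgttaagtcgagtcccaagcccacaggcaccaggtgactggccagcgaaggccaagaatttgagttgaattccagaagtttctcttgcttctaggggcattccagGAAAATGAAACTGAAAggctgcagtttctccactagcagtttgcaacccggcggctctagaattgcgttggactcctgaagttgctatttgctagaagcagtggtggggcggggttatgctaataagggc
Ifit1: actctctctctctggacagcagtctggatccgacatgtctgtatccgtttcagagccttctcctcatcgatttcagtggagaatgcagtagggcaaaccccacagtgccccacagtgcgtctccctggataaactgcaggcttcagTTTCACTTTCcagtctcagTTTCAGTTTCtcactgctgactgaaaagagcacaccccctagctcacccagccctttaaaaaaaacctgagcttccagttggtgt
The letters were found in 6 of 14 list members with a promoter in the table (B2m, Ifitm2, Ifit1, Ifit3, Isg15 and Bst2), or 42.9%, and in 936 of 27025 genes (3.46%). In the chemokine list they were found in 1 of 15 (Cxcl10). Among the 6, the ratios in macrophage-like cells ranged from Isg15, at 0 UMIs in the knockout library, to Ifitm2, at 506 against 591 CPM.

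Chemokine and cytokine genes were also lower in part. Of 14 measured, 9 were past 2-fold lower (64.3%, against 9.66% of all genes) and 0 past 2-fold higher. This list too was chosen with earlier results known, so its shares only describe. The median log2 ratio was −1.32, or −1.22 with Cxcl10, at 0 in the knockout cells, set to the 3-UMI limit. At the minimum of 202 CPM, 6 of 8 were lower, against 5.84% of all genes. Ccl4, which attracts monocytes and T cells, had 50.6 CPM in knockout and 840 CPM in control macrophage-like cells (fold 0.0602, 0.0195 to 0.142). It was found in 3 of 12 knockout cells, at most 2 UMIs each, and in 27 of 50 control cells, at up to 55. Ccl3, its neighbour on chromosome 11 (Ccl3 at chr11:83647844-83649355, Ccl4 at chr11:83662584-83664683), had 415 against 952 CPM (0.436, 0.308 to 0.601), and its log2 ratio was −1.19, or −0.94 less that of the other cells. Ccl9, encoded close by at chr11:83572919-83578636, had 20.2 against 241 CPM.

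Cxcl2, a neutrophil attractant, had 597 CPM in knockout and 1574 CPM in control macrophage-like cells (0.379, 0.286 to 0.495). A single knockout cell held 45 of the 59 knockout UMIs, and without it the level was 162 CPM against 1617 CPM without the deepest control cell. It was found in 4 of 12 knockout cells and in 44 of 50 control cells. Tnf, the inflammatory cytokine, had 10.1 against 118 CPM, with 1 UMI in the knockout group, and the monocyte attractants Ccl2 and Ccl12 had 91.0 against 331 CPM and 202 against 490 CPM. Other members were level or higher: Pf4 had 3368 against 3104 CPM (1.09, 0.961 to 1.22), and Ccl24, an eosinophil attractant, 344 against 205 CPM (1.68, 1.10 to 2.51). Chemokine-list sums per thinned cell were 7, 14 and 28 at the lowest, median and highest in knockout cells and 3, 23.5 and 60 in control cells.

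**Figure D4:**
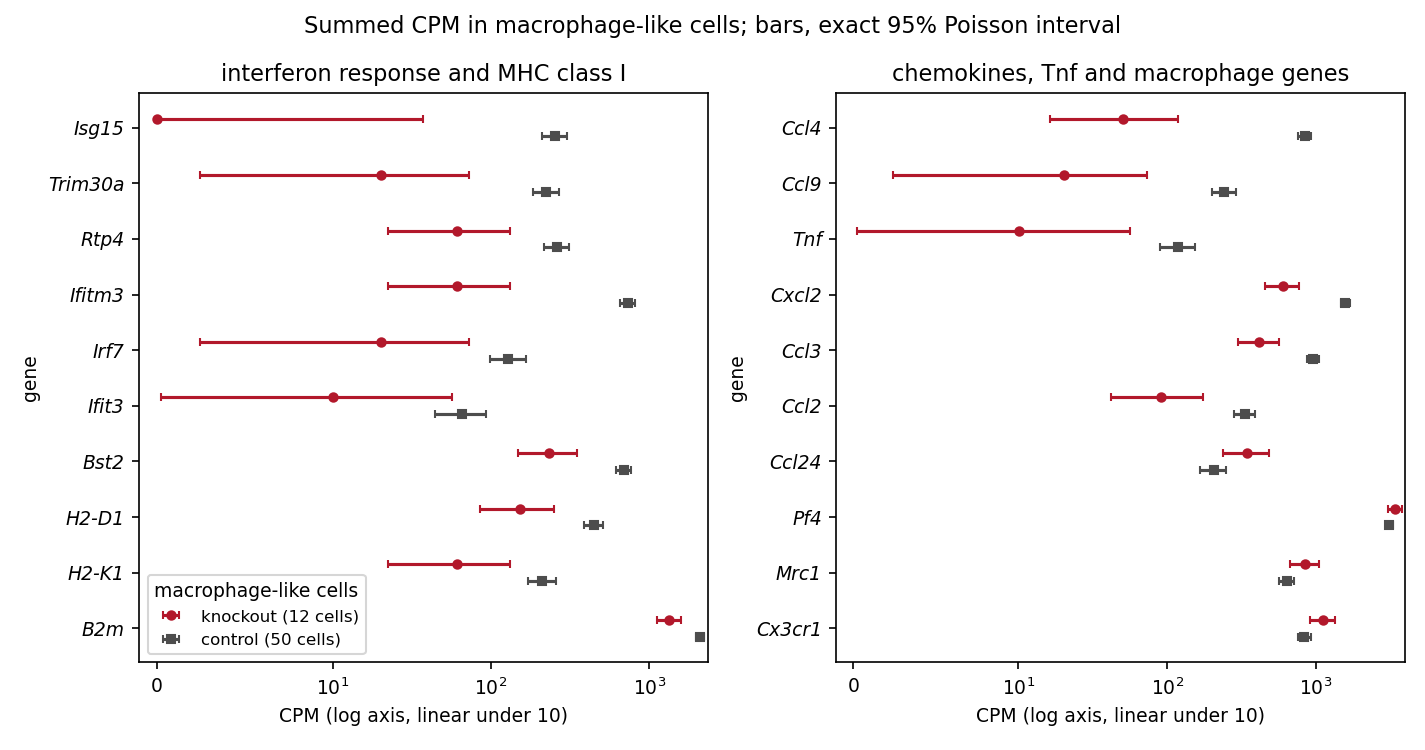
Levels (x axis, CPM, log scale, linear under 10) of named genes (y axis) in macrophage-like cells with exact 95% Poisson intervals (bars), knockout library (12 cells, circles) above control library (50 cells, squares) for each gene; interferon-response and MHC class I genes in the left panel, chemokines, Tnf and macrophage genes in the right panel. Isg15 is at 0 in the knockout library and 253 CPM in the control library, while Pf4, Mrc1 and Cx3cr1 are as high in the knockout library as in the control library or higher.

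Immediate-early and stress-response genes, which dissociation of tissue is known to induce, were also lower in part. Of 14 measured, 6 were past 2-fold lower and 0 higher (median log2 −0.47), or 6 of 12 (median −1.04) at the minimum of 202 CPM. The share lower was 42.9%, against 9.66% of all genes, and 50% at 202 CPM, against 5.84% of all genes. The NF-kappa-B inhibitor gene Nfkbia had 263 CPM in knockout and 1007 CPM in control macrophage-like cells, Junb 233 against 696 CPM, and Jun 324 against 869 CPM. Fos had 1750 against 2112 CPM and Atf3 455 against 430 CPM. Per thinned cell the list summed to 5, 16 and 31 UMIs at the lowest, median and highest in knockout cells and 8, 26.5 and 70 in control cells, with overlap. The part of dissociation in the chemokine result was not tested. Hmox1, the haem-degrading oxygenase, had 152 against 876 CPM (0.173, 0.0961 to 0.289); a single control cell held 109 of the 415 control UMIs. Cdkn1a, a cell-cycle inhibitor, had 20.2 against 376 CPM (0.0539, 0.00647 to 0.197). Slc40a1 had 425 against 426 CPM.

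Most lysosomal genes did not pass 2-fold. Of 19 measured, 3 were past 2-fold lower (15.8%, against 9.66% of all genes), and 17 had a ratio below 1 (median log2 −0.44). Lyz2, lysozyme, had 566 CPM in knockout and 1509 CPM in control macrophage-like cells, and Grn, progranulin, 364 against 743 CPM. Ctsb had 1679 against 2211 CPM and Lgmn 860 against 1055 CPM. The list held 9, 20.5 and 43 UMIs per thinned knockout cell at the lowest, median and highest, against 22, 36 and 91 per control cell. Apoe had 11814 against 16037 CPM, a ratio of 0.737 (0.692 to 0.784), next to 61.7 against 85.4 CPM in the other cells.

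Genes of the macrophage list stayed within 2-fold, in cells that were chosen by their C1q UMIs. C1qc is a list member and was used in that cut, so cells without C1q lie outside this comparison. Of 10 measured list genes 0 passed 2-fold in either direction, with 4 above and 6 below a ratio of 1. Among all genes 3.51% were higher and 9.66% lower. Mrc1 had 840 CPM in knockout and 635 CPM in control macrophage-like cells (1.32, 1.02 to 1.69), Cx3cr1 1113 against 831 CPM (1.34, 1.07 to 1.66), and the other members above 1 were Aif1 and Pf4. Below 1, beside C1qc, were Cd68 at 152 against 255 CPM (0.594, 0.323 to 1.02), Lgmn at 860 against 1055 CPM, Ms4a7 at 354 against 437 CPM, Adgre1, the F4/80 antigen, at 182 against 213 CPM, and Fcgr1 at 233 against 279 CPM. Outside the list, Maf had 1204 against 798 CPM (1.51, 1.22 to 1.86), Gas6 597 against 350 CPM (1.70, 1.24 to 2.31) and Spi1 577 against 460 CPM. Of the secreted and trophic list 5 genes were measured, each below 1, and 2 passed 2-fold (40%, against 9.66% of all genes). These were Tgfbi, an extracellular matrix protein gene (ratio 0.449, 0.159 to 1.03), and Bmp2, a growth factor gene (0.331, 0.0382 to 1.31), both with intervals that spanned 1. Among scavenger genes 3 of 10 were past 2-fold lower, against 9.66% of all genes. Folr2 had 70.8 against 203 CPM, and Lyve1, short of the fold, 243 against 416 CPM, while Stab1 had 556 against 449 CPM. Of the G2/M list, 6 of 16 measured genes were past 2-fold higher (37.5%, against 3.51% of all genes) and 0 lower. At the minimum of 202 CPM, 1 of 2 was higher, against 1.06% of all genes. Mki67 had 152 against 63.3 CPM, in 5 of 12 and 10 of 50 cells, and Cenpa 314 against 122 CPM. Counts of macrophage-like cells with at least 3 of the 5 genes named earlier gave no order. Unthinned, they were 3 of 12 knockout (25%) and 11 of 50 control cells (22%). Thinned, they were 1 of 12 (8.33%, 0.211 to 38.5%) and 7 of 50 (14%, 5.82 to 26.7%). G2/M-list sums per thinned cell were 0, 5.5 and 16 at the lowest, median and highest in knockout cells and 0, 1 and 23 in control cells.

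**Figure D5:**
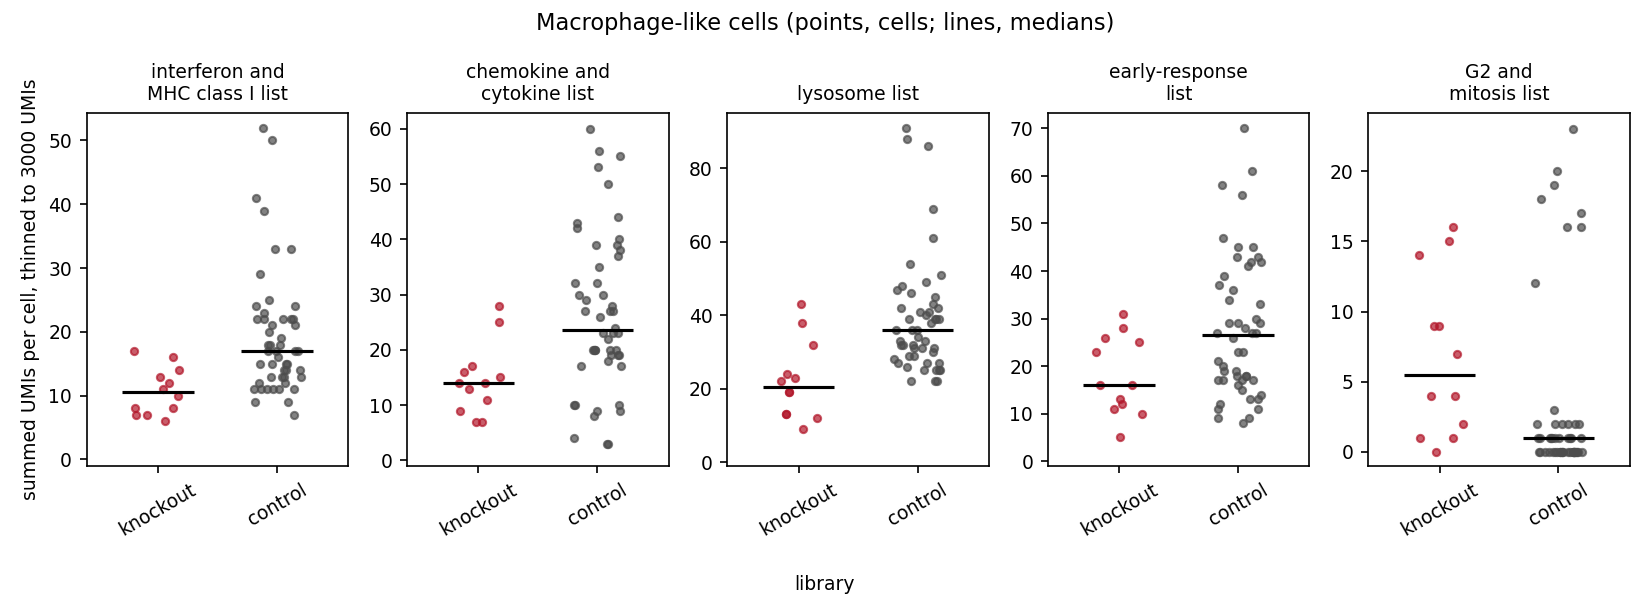
Summed UMIs per macrophage-like cell at 3000 UMIs (y axis) for 5 gene lists, each point a cell, knockout library left of control library, with medians as lines. Medians are 10.5 against 17 for the interferon and MHC class I list and 14 against 23.5 for the chemokine list, and the points of the libraries overlap in every list.

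Other subsets were too small for a comparison of genes beyond their values. Granulocyte-like cells had S100a8 at 90909 CPM in the 3 knockout cells and 130788 CPM in the 21 control cells, Ngp at 21292 against 25278 CPM and Lcn2 at 8118 against 7918 CPM. Elane had 1540 against 162 CPM and Prtn3 2414 against 513 CPM, through the Mpo-positive knockout cell. In mast-like cells, 3 in the knockout library and 8 in the control library, Cpa3 had 5910 against 4798 CPM, Hdc 1800 against 870 CPM and Cma1 4320 against 2511 CPM, and single cells spanned 0 to 88 and 1 to 194 UMIs of Cma1.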

How the data were processed

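Single-cell RNA-seq was made from 1 knockout and 1 control embryonic pancreas. The deposited matrices hold whole-number UMI counts per gene and barcode; per the submitters' processing notes the authors used Cell Ranger and Seurat (versions 2 and 3 are named) with GRCm38 (mm10), and the counts carry no normalization. The matrices were read as sparse tables with 27998 gene IDs, of which 27722 were found in the reference annotation.

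Members and gene lists were chosen with earlier results of these data known. Cells were filtered and selected as the results state, and subsets were cut after values were seen. Counts were summed per library and group and scaled to CPM; ratios used log2(CPM + 5) over genes with at least 50 CPM in a group and 20 UMIs over both. Calls are sizes, 4-fold between selected and other cells and 2-fold between libraries, with no test, since each group is 1 library. Intervals are 95%: exact binomial for shares, exact Poisson for levels, exact conditional for ratios of levels and log-normal for ratios of shares. PCR and capture error lie outside them. A count of 0 was given a limit of 3 UMIs. Doublets were kept; removing the highest simulated doublet scores, 0.8% per 1000 barcodes, was an alternative. Thinning drew 3000 UMIs per cell and kept 2955 knockout and 3832 control cells, with all 22 and 85 selected ones.

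Named genes were list members, the 24 highest and 8 lowest ratios of selected over other cells, the 12 most abundant genes, and the 8 highest and 8 lowest ratios between libraries, without rule, ribosomal, mitochondrial, haemoglobin and sex-linked genes; other names were chosen after values were seen. Promoters came from the RefSeq table for GRCm38.p6. The selection was checked on constructed cells, and the ratio interval on counts drawn from the Poisson model that it assumes. That check covers the code and not the uneven counts between real cells. Software was Python 3.11.15 with numpy 2.4.6, scipy 1.17.1, pandas 2.3.3, scikit-learn 1.9.0, matplotlib 3.10.9 and scanpy 1.11.5, and R 4.3.3 with edgeR 4.0.16 for the TMM factors.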

Additional observations from a re-analysis of the deposited data

How the results depend on the processing

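No paired analysis was possible because each group is 1 library, and for the same reason no replicate could be left out. The ratio of shares, 0.333, ranged from 0.263 (cells thinned to 3000 UMIs) to 0.348 (rule minimum 3) over the alternatives run and stayed below 1 in each. Counts of genes depended on the settings. With a pseudocount of 20 CPM, 176 genes were higher and 105 lower in selected than in other cells, and 44 higher and 99 lower in knockout than in control selected cells. With every gene of at least 1 UMI included, these were 412 lower in selected cells, and 623 higher and 1080 lower in knockout cells. Without haemoglobin, mitochondrial and ribosomal protein genes, 360 were lower in selected cells and 217 higher in knockout cells. A mean of per-cell CPM gave 136 higher in knockout cells, and leaving out granulocyte-like cells, chosen after seeing the data, 132. Among selected cells with at least 3 C1q UMIs, 286 were lower in knockout cells. At 3000 UMIs per cell, 9.09% of knockout and 27.1% of control selected cells held at least 3 of the 5 cycling genes. In macrophage-like cells, 8 genes were higher and 44 lower in the knockout library (104 and 286 otherwise) with an equal minimum of 202 CPM in either library, also chosen after seeing the data; fewer genes are then measured. The cause of the other moves was not tested. TMM scaling moved the median log2 ratio of all genes in selected over other cells to −0.01, against −0.30. Of 260 alternative values for 26 genes in macrophage-like cells, 240 stayed within the gene's counting interval and 20 did not, and no gene past 2-fold changed direction; Pf4 had a log2 ratio of 0.12, but −0.02 with doublets removed and −0.03 under TMM. Without the deepest macrophage-like cell of each library the log2 ratio was −3.28 for Cxcl2 (−1.39 with it), −4.77 for Ifitm3 (−3.49) and −4.66 for Tnf (−3.03). Other gates gave 61 to 65 macrophage-like, 23 to 24 granulocyte-like and 9 to 11 mast-like cells. Depth limits the knockout macrophage-like cells: 3 UMIs there are 30.3 CPM, against 6.33 CPM in control ones.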

Other observations

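Immune transcripts outside the selected cells differed by gene and library. S100a8 UMIs were found in 100 of 2990 other knockout cells (3.34%, 3.68 CPM) and 685 of 3786 other control cells (18.1%, 24.3 CPM), while C1qc was found in 3 and 33 of them. In cells with at least 2 UMIs of Epcam and Cdh1, C1qa had 10.1 CPM in the knockout library (54 of 475 cells) and 10.2 CPM in the control library (85 of 728 cells). The other C1q chains did not accompany it there, with C1qb at 0.274 and 1.50 CPM and C1qc at 0.274 and 0.846 CPM, although the 3 chains had 2282, 3347 and 2647 CPM in macrophage-like cells. In other cells with fewer than 2 of those UMIs, C1qa had 0.298 CPM in the knockout library and 1.66 CPM in the control library.

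Mast-like cells held transcripts of genes best known from lymphocytes. Cd3g, a chain of the T cell receptor complex, was detected in 2 of 3 knockout and 5 of 8 control mast-like cells, at most 9 UMIs each, and Nkg7, of cytotoxic granules, in 2 of 3 and 6 of 8. Cd3g was found in 0 of 4 knockout and 2 of 6 control unnamed cells, 6 of which, over both libraries, met the lymphoid list. Il7r was at 0 in all 11 mast-like cells. Cx3cr1 had 192 CPM in mast-like cells and 880 CPM in macrophage-like cells.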
